A study of Homo sapiens with 6 samples.

Results

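The 60 genes described here encode ribosome biogenesis factors and RNA polymerase I (Pol I) machinery. They were taken by symbol from the 63677 gene rows of the count table, and where a symbol had several gene IDs the ID with the most counts was used. They comprised 5 Pol I genes, 6 genes of small nucleolar ribonucleoproteins (snoRNPs), 25 small subunit factors, 19 large subunit factors and 5 genes that serve both subunits or have general nucleolar roles. All 60 passed the filter on low counts and were among the 15949 genes tested. Their RNA was measured by strand-specific paired-end sequencing of total RNA from RPMI-8402, a human T-cell acute lymphoblastic leukaemia (T-ALL) line. The cells of both groups carried Cas9 stably. The DOX group (labelled MYCN_knockout) received doxycycline for 72 h to induce guide RNAs aimed at MYC and MYCN, and the DMSO group (labelled control) received the solvent. Each group held 3 libraries, named here by the numbers of their count columns as DOX 12, DOX 24 and DOX 36, and DMSO 11, DMSO 23 and DMSO 35. The labels differ on the target: the design text names both genes, the treatment text MYC and the genotype MYCN. The sources used here do not say whether the line was a single clone. No library with doxycycline but without guides was analysed here, so the drug and the guides cannot be told apart.

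Ribosome assembly begins in the nucleolus, where Pol I transcribes a long precursor of ribosomal RNA. The small subunit processome folds and cuts that precursor around its small subunit part, snoRNPs guide its methylation and pseudouridylation, and a separate set of factors matures and exports the large subunit. MYC proteins are transcription factors that bind the E-box CACGTG, and genes of ribosome assembly are among their best known targets in proliferating cells, leukaemias included. The comparison asked how the RNA of these genes stood 72 h after the guides were switched on.

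The libraries held between 28602145 and 29204148 counts. MYCN was at 46.2, 50.05 and 53.7 CPM, a count scaled to the library's size, in DOX and at 76.8, 109.5 and 86.9 CPM in DMSO (log2 fold change -0.87 ± 0.13 SE, edgeR adjusted p = 0.0726, DESeq2 adjusted p = 1.08e-05). MYC was at 206, 200.5 and 193 CPM in DOX and at 279, 201 and 256 CPM in DMSO (log2 fold change -0.30 ± 0.12 SE, edgeR adjusted p = 0.176, DESeq2 adjusted p = 0.159). Gene counts do not show whether the guides cut. Both tests model read counts, and edgeR is the main one. DMSO 11 stood apart from its group: over the 9311 genes averaging at least 10 CPM, its root mean square distance in log2 CPM was 0.18 to 0.21 to the DOX libraries and 0.41 and 0.43 to the other DMSO libraries. The DOX libraries lay 0.11 from each other and DMSO 23 lay 0.17 from DMSO 35. Medians, counts and many of the genes described are therefore also given without DMSO 11. DMSO 11 was singled out by these distances, and leaving it out leaves only DMSO 23 and DMSO 35 as controls. In that fit edgeR called 8109 of the 16412 genes tested, so small p-values without DMSO 11 are common to many genes. The labels give no batch, and whether DMSO 11 carries the right label or came from another batch was not tested. Every DOX over DMSO value below includes it unless stated. Its MYCN level lay above every DOX library. Without DMSO 11 the log2 fold change was -0.98 for MYCN (edgeR adjusted p = 2.26e-07) and -0.20 for MYC (edgeR adjusted p = 0.0566). T-cell markers named for this line were present, with CD3D, CD3E, CD3G, CD7, CD5, DNTT, TAL1, LMO1 and NOTCH1 at mean levels of 85.3 to 484 CPM, while PTCRA (5.45 CPM) and RAG1 (2.93 CPM) were low and CD1E was near 0. All 11 B-cell, myeloid and erythroid markers had means of 2.04 CPM or less. Levels are shares of each library's reads, and in bulk RNA fewer cells and less RNA per cell cannot be told apart. The labels do not say whether the 3 libraries of a group are separate cultures. A p-value here therefore reflects library-to-library spread, which may be technical.

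The 60 genes were close in level between DOX and DMSO, with a tilt towards lower levels in DOX. Their median log2 fold change was -0.10 (-0.045 without DMSO 11), beside -0.0031 over all genes tested and -0.021 over genes averaging at least 10 CPM. The fold change was below 0 for 43 members (71.7%) and above 0 for 17. Below 0 were 50.3% of all genes and 53.4% of genes averaging at least 10 CPM. Within 0.25 of 0 lay 47 members (78.3%), beside 55.6% of all genes and 67.4% of genes averaging at least 10 CPM. The 4 beyond 0.5 were UTP18, EMG1 and NMD3, which were negative, and IMP3, which was positive. Beyond 0.5 lay 2765 of all 15949 genes and 678 of the 9311 averaging at least 10 CPM. In the quasi-likelihood test of edgeR, adjusted over all genes by Benjamini-Hochberg, 0 of the 60 passed 0.05, beside 0.0313% of all genes (5 of 15949), and the smallest adjusted p of a member was 0.0846. The voom method of limma also called 0 members. At an unadjusted p under 0.05, 17 members were lower and 1 was higher in DOX, which is 28.3% and 1.67% of the members. The shares were 14.8% and 11.2% of all genes and 17.8% and 9.89% of genes averaging at least 10 CPM. DESeq2, run as an alternative, called 6 members lower (UTP18, EMG1, DDX10, RIOK1, NMD3 and NOL10) and 0 higher, which is 10% and 0% of the members. The shares were 6.44% and 3.37% of all genes and 7.42% and 2.90% of genes averaging at least 10 CPM. The authors' deposited table gave 5 members as lower and 0 as higher at an adjusted p under 0.05, beside 6.61% and 2.96% of its genes; NOL10 had an adjusted p of 0.0512 there.

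The 3 DOX values were lower than the 3 DMSO values for 24 members, which is 40%, beside 15.6% of all genes and 19.1% of genes averaging at least 10 CPM. The reverse order, all DOX above all DMSO, held for IMP3 alone (1.67%), beside 14.6% of all genes and 12.6% of genes averaging at least 10 CPM. The remaining 35 members overlapped between the groups. Summed over the 60 members, the level was 6917, 7214 and 6786 CPM in DOX 12, DOX 24 and DOX 36 and 7962, 6881 and 7277 CPM in DMSO 11, DMSO 23 and DMSO 35. DMSO 11 was the highest library and DMSO 23 lay inside the DOX range, so the summed level did not separate the groups. The median SD of log2 CPM over the members was 0.060 in DOX and 0.15 in DMSO, beside 0.086 in DOX and 0.21 in DMSO over all genes and 0.059 in DOX and 0.17 in DMSO over genes averaging at least 10 CPM. The smaller spread in DOX was thus seen over all genes as well.

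**Figure D1:**
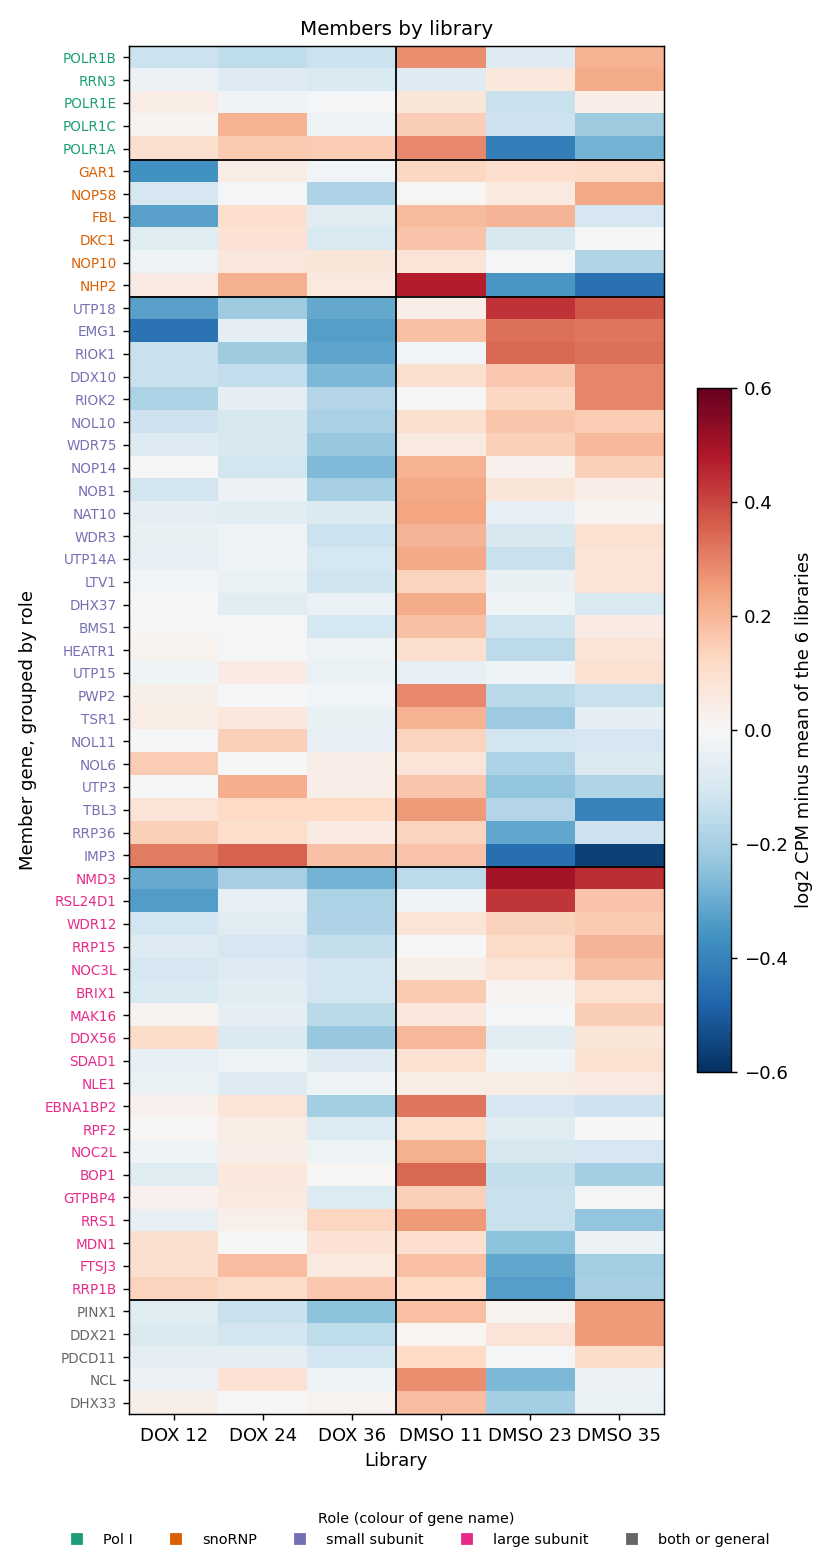
Level of each of the 60 members in each library as log2 CPM minus the member's mean over the 6 libraries (colour), with genes grouped by role from top to bottom and DOX libraries to the left of DMSO libraries. Blue fills most of the DOX columns for the 24 members at the lower end, DMSO 11 is red for most rows, and DMSO 23 and DMSO 35 differ from DMSO 11 in sign for genes such as NHP2 and POLR1A.

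**Figure D2:**
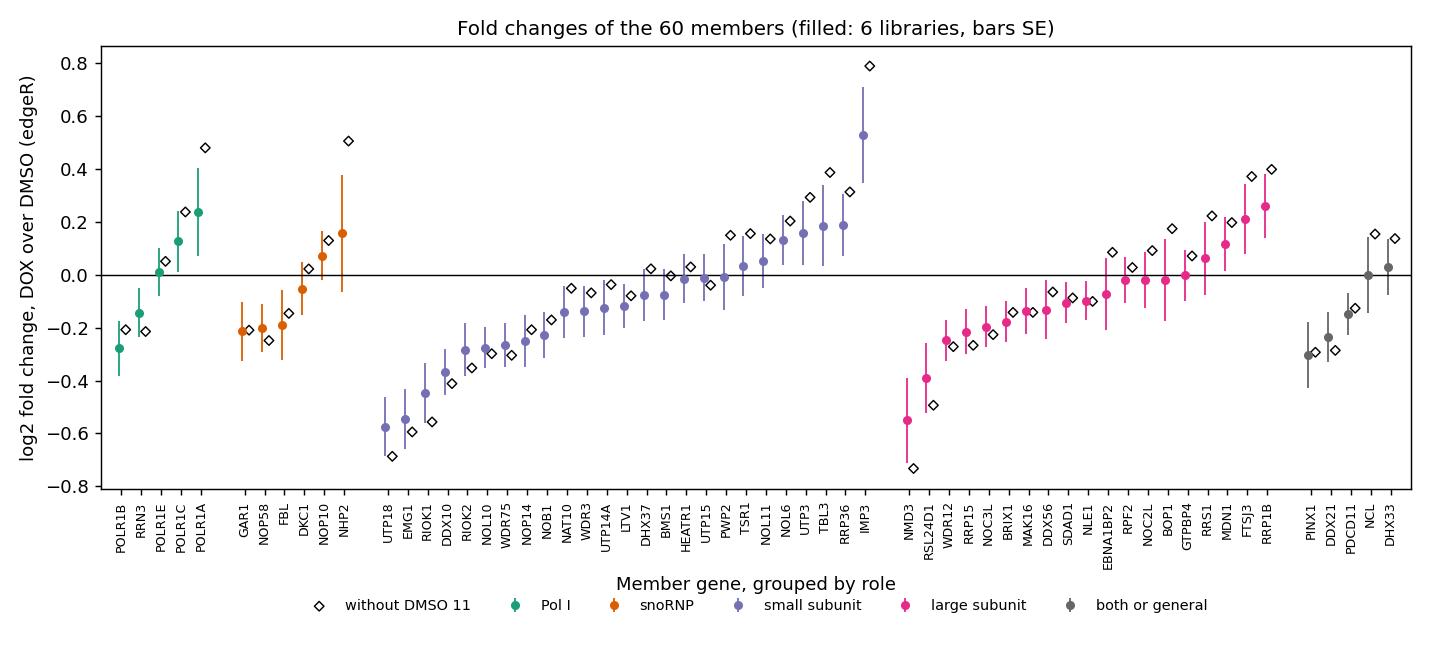
Log2 fold change, DOX over DMSO, of the 60 members in edgeR (filled points, bars are the SE, 3 libraries a group), sorted within role, with the value without DMSO 11 as open diamonds. Most points lie within 0.25 of 0, UTP18, EMG1 and NMD3 lie below -0.5, and IMP3 lies above 0.5. The diamonds of UTP18, EMG1, NMD3 and IMP3 are farther from 0 than their points, while those of POLR1B, GAR1 and PINX1 are nearer to 0.

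MYC and MYCN, the genes named as targets in the design text, encode proteins that bind the E-box CACGTG. The 300-base promoter windows of RefSeq (GRCh38.p14) were therefore searched for these 6 letters, which read the same on both strands. Each window ran from 250 bases before to 50 bases after a gene's start. A window was matched for 50 of the 60 members, and 15 of them (30%) held the motif, beside 7.256% of all 35116 windows, 8.339% of the 22198 windows of protein-coding genes and 28% of the 75 matched windows of the other ribosome assembly genes listed. By role it was in 0 of 4 Pol I windows, 2 of 5 snoRNP windows, 8 of 24 small subunit windows, 5 of 14 large subunit windows and 0 of 3 of the general group. By the order of the groups, it was in 6 of 21 windows of members with all DOX libraries below all DMSO libraries (28.571%) and in 9 of 28 of members whose groups overlapped (32.143%). The 3 windows with 2 matches each were those of UTP18 (chr17:51260296-51260595, plus strand), NOP10 (chr15:34343087-34343386, minus strand) and MDN1 (chr6:89819745-89820044, minus strand). They are shown with those of EMG1 (chr12:6970663-6970962, plus strand) and NMD3 (chr3:161221061-161221360, plus strand), which stand beside UTP18 at the lower end of the fold changes and hold no match. Each is written 5′ to 3′ on the gene's strand, with CACGTG in capitals.
UTP18: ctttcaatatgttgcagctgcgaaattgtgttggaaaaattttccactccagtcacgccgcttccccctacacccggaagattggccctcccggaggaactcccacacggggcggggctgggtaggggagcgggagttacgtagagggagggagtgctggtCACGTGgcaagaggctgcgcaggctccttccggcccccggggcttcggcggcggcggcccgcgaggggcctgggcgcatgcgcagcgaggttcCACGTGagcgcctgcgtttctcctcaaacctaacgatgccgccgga
NOP10: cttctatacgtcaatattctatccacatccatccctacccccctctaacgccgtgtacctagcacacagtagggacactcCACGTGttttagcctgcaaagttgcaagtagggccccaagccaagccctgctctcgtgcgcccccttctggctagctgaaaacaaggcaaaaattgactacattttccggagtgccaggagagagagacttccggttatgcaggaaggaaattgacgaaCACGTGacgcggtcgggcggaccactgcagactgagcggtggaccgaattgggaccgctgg
MDN1: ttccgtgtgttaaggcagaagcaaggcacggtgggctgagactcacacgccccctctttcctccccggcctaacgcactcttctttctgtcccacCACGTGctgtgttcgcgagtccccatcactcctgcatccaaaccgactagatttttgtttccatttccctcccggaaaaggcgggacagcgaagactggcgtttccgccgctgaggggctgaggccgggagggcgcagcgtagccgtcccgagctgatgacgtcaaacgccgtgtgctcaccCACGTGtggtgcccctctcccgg
EMG1: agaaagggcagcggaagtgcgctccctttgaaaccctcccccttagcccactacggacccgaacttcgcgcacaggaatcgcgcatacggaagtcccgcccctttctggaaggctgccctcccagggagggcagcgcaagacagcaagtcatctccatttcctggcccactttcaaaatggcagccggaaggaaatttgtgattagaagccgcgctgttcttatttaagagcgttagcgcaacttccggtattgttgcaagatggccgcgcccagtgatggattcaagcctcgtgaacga
NMD3: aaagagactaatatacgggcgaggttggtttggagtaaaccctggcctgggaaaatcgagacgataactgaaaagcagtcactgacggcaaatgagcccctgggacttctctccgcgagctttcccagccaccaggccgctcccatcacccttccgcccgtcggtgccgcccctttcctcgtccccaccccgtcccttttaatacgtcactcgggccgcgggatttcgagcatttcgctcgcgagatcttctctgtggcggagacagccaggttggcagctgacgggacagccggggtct
UTP18 had the lowest fold change of the 60 (-0.57), while NOP10 and MDN1, with as many matches, had fold changes of 0.072 and 0.12. EMG1 and NMD3, each at -0.55, had the motif nowhere in these windows. A match is a run of letters and not a measured binding site.

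The 5 Pol I genes had fold changes on both sides of 0 and none passed the test, with a median log2 fold change of 0.011. That median was 0.051 without DMSO 11, -0.053 without DMSO 23, -0.0019 without DOX 12 and -0.0016 with no filter on low counts. POLR1A, the largest catalytic subunit, was at 140.2, 146 and 146 CPM in DOX and at 160.1, 98.9 and 108 CPM in DMSO. Its DMSO values spanned the DOX values, because DMSO 11 was above and DMSO 23 and DMSO 35 were below all DOX libraries (log2 fold change 0.24 ± 0.17 SE, edgeR adjusted p = 0.380). POLR1B, the second largest subunit, was at 59.5, 58.5 and 59.4 CPM in DOX and at 78.7, 61.5 and 75.02 CPM in DMSO. It was the Pol I gene with no overlap between groups, although DMSO 23 came within a few CPM of the DOX libraries (log2 fold change -0.28 ± 0.10 SE, edgeR adjusted p = 0.148). POLR1C, a subunit shared with RNA polymerase III, was at 57.8, 66.0 and 56.0 CPM in DOX and at 63.2, 52.3 and 49.2 CPM in DMSO, and the groups overlapped through DMSO 11 (log2 fold change 0.13 ± 0.12 SE, edgeR adjusted p = 0.498). POLR1E, a subunit that works in initiation and elongation, was at 35.2, 33.7 and 34.0 CPM in DOX and at 35.9, 31.1 and 35.1 CPM in DMSO, with overlapping groups (log2 fold change 0.011 ± 0.091 SE, edgeR adjusted p = 0.947). RRN3, the factor that brings Pol I to its promoter, was at 90.1, 87.6 and 86.6 CPM in DOX and at 87.6, 96.5 and 108 CPM in DMSO; here DMSO 11 lay among the DOX libraries (log2 fold change -0.14 ± 0.093 SE, edgeR adjusted p = 0.344). Without DMSO 11, edgeR called POLR1A (0.48, adjusted p = 5.52e-06) and POLR1C (0.24, adjusted p = 0.0156) higher in DOX, and POLR1B (-0.21, adjusted p = 0.0318) and RRN3 (-0.21, adjusted p = 0.0113) lower. That fit also called 23.7% of all genes higher and 25.7% lower, so a call in it does not set these genes apart. POLR1E was at 0.051 without DMSO 11 (edgeR adjusted p = 0.611). The RNA18S5 and RNA28S5 rows, for mature ribosomal RNAs that Pol I makes, held 0 counts, so these products of Pol I were not measurable here. Other ribosomal RNA rows were not examined.

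The snoRNP genes comprised FBL and NOP58 of the methylating box C/D particles and DKC1, NOP10, NHP2 and GAR1 of the pseudouridylating box H/ACA particles. None of the 6 passed the test, and their median log2 fold change was -0.12; it was -0.062 without DMSO 11 and -0.050 without DOX 12. FBL, the methyltransferase, was at 154, 206 and 184 CPM in DOX and at 219, 222 and 179 CPM in DMSO, which overlapped (log2 fold change -0.19 ± 0.13 SE, edgeR adjusted p = 0.372). NOP58, a core scaffold protein, was at 97.7, 104 and 92.1 CPM in DOX and at 105, 109 and 123 CPM in DMSO, with all DOX libraries lower by a narrow margin (log2 fold change -0.20 ± 0.092 SE, edgeR adjusted p = 0.206). GAR1 also showed no overlap, at 78.7, 105 and 100.0 CPM in DOX and 110.2, 109 and 109.6 CPM in DMSO, where DOX 12 set most of the difference (log2 fold change -0.21 ± 0.11 SE, edgeR adjusted p = 0.255). DKC1, the pseudouridine synthase, was at 259, 288 and 256 CPM in DOX and at 306, 255 and 272 CPM in DMSO, with the ranges nearly the same (log2 fold change -0.052 ± 0.10 SE, edgeR adjusted p = 0.761). NOP10, a small partner of DKC1, was at 57.4, 61.5 and 61.7 CPM in DOX and at 61.8, 58.3 and 51.7 CPM in DMSO, again overlapping (log2 fold change 0.072 ± 0.092 SE, edgeR adjusted p = 0.629). NHP2, an RNA-binding partner in the same particle, was at 75.3, 84.4 and 75.7 CPM in DOX and at 101, 57.1 and 53.4 CPM in DMSO. DMSO 11 was the highest of the 6 libraries for NHP2 and the other DMSO libraries were the lowest (log2 fold change 0.16 ± 0.22 SE, edgeR adjusted p = 0.666; without DMSO 11, 0.51, adjusted p = 1.02e-05). Of the others, NOP58 passed without DMSO 11 (-0.25, edgeR adjusted p = 0.00648), and FBL (-0.15), GAR1 (-0.21), DKC1 (0.022) and NOP10 (0.13) had edgeR adjusted p between 0.0859 and 0.815. The exons of NHP2 share 27.4% of their length with RMND5B on the opposite strand, and its value is uncertain because the sources used here do not give the strand setting of the counting.

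DESeq2 called 5 of the 25 small subunit members lower (20%), beside 6.44% of all genes and 7.42% of genes averaging at least 10 CPM. Among the other ribosome assembly genes listed, it called 3 of 31 small subunit genes lower (9.68%). That was a smaller share than for the snoRNP (30%), Pol I (20%) and large subunit genes (13.5%) of that list. The median log2 fold change of the 25 members was -0.12, and -0.040 without DMSO 11. For 10 of the 25 (40%) each DOX library was lower than each DMSO library and for 1 (4%) the reverse held. The shares were 15.6% and 14.6% of all genes and 19.1% and 12.6% of genes averaging at least 10 CPM. At an unadjusted edgeR p under 0.05, 9 (36%) were lower and 1 (4%) was higher. The shares were 14.8% and 11.2% of all genes and 17.8% and 9.89% of genes averaging at least 10 CPM. UTP18, a WD-repeat protein of the small subunit processome, was at 88.1, 95.3 and 89.2 CPM in DOX and at 114, 149 and 143 CPM in DMSO. The groups did not overlap, and DMSO 11 lay between the DOX libraries and the other DMSO libraries (90.9 ± 3.86 CPM in DOX and 135 ± 19.0 CPM in DMSO, SD, n = 3 each; log2 fold change -0.57 ± 0.11 SE, edgeR adjusted p = 0.0846, DESeq2 adjusted p = 0.00137). EMG1, a methyltransferase that modifies the small subunit RNA, was at 39.7, 52.1 and 42.9 CPM in DOX and at 61.1, 68.1 and 67.5 CPM in DMSO. All DMSO libraries, DMSO 11 included, were above all DOX libraries, of which DOX 24 was the highest (log2 fold change -0.55 ± 0.11 SE, edgeR adjusted p = 0.0892, DESeq2 adjusted p = 0.00389). The exons of EMG1 share 49.5% of their length with LPCAT3 on the opposite strand, so its counts are uncertain.

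The other small subunit calls of DESeq2 were smaller in size. RIOK1, an atypical kinase of late small subunit maturation, was at 45.4, 43.0 and 40.0 CPM in DOX and at 49.2, 63.1 and 62.6 CPM in DMSO (log2 fold change -0.45 ± 0.11 SE, edgeR adjusted p = 0.0957, DESeq2 adjusted p = 0.0200). DDX10, a DEAD-box RNA helicase, was at 56.5, 55.9 and 51.5 CPM in DOX and at 66.1, 69.3 and 75.9 CPM in DMSO (log2 fold change -0.37 ± 0.088 SE, edgeR adjusted p = 0.0912, DESeq2 adjusted p = 0.0161). NOL10, a nucleolar protein of the processome, was at 43.7, 44.6 and 41.6 CPM in DOX and at 50.8, 53.5 and 52.9 CPM in DMSO (log2 fold change -0.28 ± 0.079 SE, edgeR adjusted p = 0.102, DESeq2 adjusted p = 0.0474). None of these 3 overlapped between groups; DMSO 11 was the lowest DMSO library for each, and for RIOK1 it lay nearer to DOX 12 than to DMSO 23 or DMSO 35. None of these 5 DESeq2 calls held with every library left out in turn, although in edgeR the fold changes kept their sign: UTP18 ran from -0.69 to -0.50, EMG1 from -0.67 to -0.46, RIOK1 from -0.56 to -0.39, DDX10 from -0.41 to -0.31 and NOL10 from -0.30 to -0.25. In DESeq2, UTP18 missed the threshold without DOX 12 (adjusted p = 0.0795) and without DOX 36 (adjusted p = 0.0628). EMG1 missed it without DOX 12, DOX 36, DMSO 23 or DMSO 35 (DESeq2 adjusted p of 0.126, 0.111, 0.0701 and 0.0686). RIOK1, DDX10 and NOL10 missed it without any one library other than DMSO 11, at DESeq2 adjusted p between 0.116 and 0.32. Without DMSO 11 all 5 passed, NOL10 with the largest DESeq2 adjusted p (0.0019), and their edgeR log2 fold changes were -0.69 (UTP18), -0.59 (EMG1), -0.56 (RIOK1), -0.41 (DDX10) and -0.30 (NOL10).

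NAT10 and NOP14 had the highest small subunit levels per kilobase of exon, at 49.6 and 46.3 CPM per kb. NAT10, an RNA acetyltransferase, was at 249, 248 and 244 CPM in DOX and at 306, 250.1 and 262 CPM in DMSO; DMSO 23 was barely above DOX 12, and the groups did not overlap (log2 fold change -0.14 ± 0.10 SE, edgeR adjusted p = 0.375). NOP14, a processome protein, was at 163, 151 and 135 CPM in DOX and at 188, 166 and 179.7 CPM in DMSO, with no overlap (log2 fold change -0.25 ± 0.10 SE, edgeR adjusted p = 0.160). Without DMSO 11 NAT10 was at -0.051 (edgeR adjusted p = 0.523) and NOP14 at -0.21 (edgeR adjusted p = 0.0255). IMP3, a protein of the processome, was named after its values were seen, because it was the member with the reverse order. It was at 51.3, 52.8 and 46.7 CPM in DOX and at 46.5, 30.2 and 27.99 CPM in DMSO, so that DMSO 11 nearly touched the lowest DOX library and the other DMSO libraries stood well below (log2 fold change 0.53 ± 0.18 SE, edgeR adjusted p = 0.131, DESeq2 adjusted p = 0.0649). Without DMSO 11 it was at 0.79 (edgeR adjusted p = 1.20e-07). The exons of IMP3 share 31.2% of their length with SNX33 on the opposite strand, so this value is uncertain too. The other small subunit members ranged between -0.28 and 0.19 on the log2 scale, with RIOK2, a kinase related to RIOK1, and WDR75, a processome protein, at the lower end and RRP36 and TBL3, both processome proteins, at the upper end. NOP14, TBL3 and RRP36 share 17.1%, 29.9% and 11.8% of their exon length with a gene on the opposite strand and are uncertain for the same reason.

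**Figure D3:**
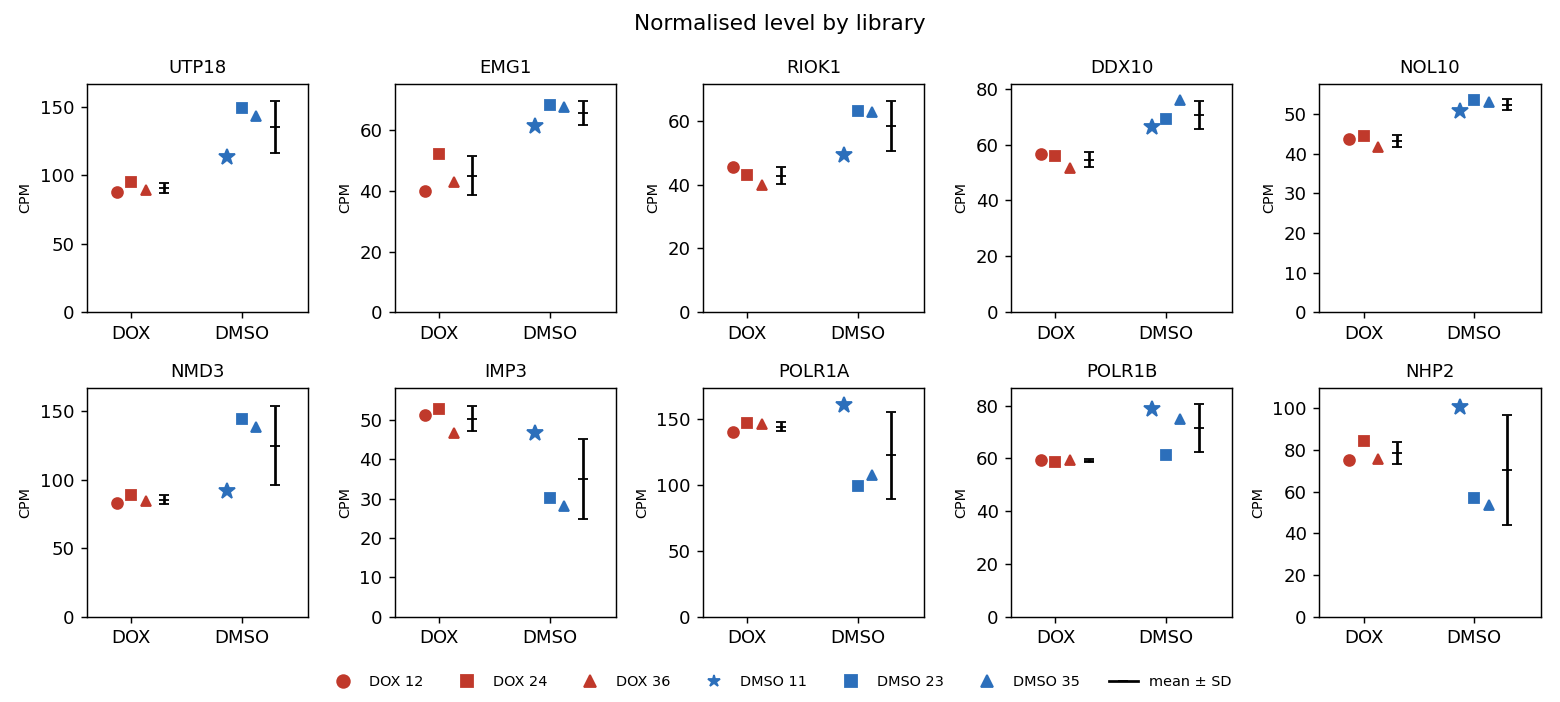
Level in CPM in each library for 10 members, DOX libraries (red) to the left of DMSO libraries (blue, DMSO 11 as a star), with the mean and SD of each group beside the points (n = 3 each). UTP18, EMG1, RIOK1, DDX10, NOL10, NMD3 and POLR1B show every DOX library below every DMSO library, IMP3 shows the reverse, and in POLR1A and NHP2 DMSO 11 lies above the DOX libraries while DMSO 23 and DMSO 35 lie below them.

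Among the 19 large subunit factors the median log2 fold change was -0.10; it was -0.065 without DMSO 11 and -0.055 without DOX 36. For 8 (42.1%) each DOX library was lower than each DMSO library and for 0 higher. The shares were 15.6% and 14.6% of all genes and 19.1% and 12.6% of genes averaging at least 10 CPM. NMD3, the export adaptor that carries the large subunit out of the nucleus, was at 82.8, 89.1 and 84.0 CPM in DOX and at 91.5, 144 and 139 CPM in DMSO. DMSO 11 was close above the DOX libraries and far below DMSO 23 and DMSO 35, so the size of the difference depended on that library (log2 fold change -0.55 ± 0.16 SE, edgeR adjusted p = 0.105, DESeq2 adjusted p = 0.0269). Without DMSO 11 the log2 fold change of NMD3 was -0.73 (edgeR adjusted p = 1.73e-08), and without any one of the other libraries its DESeq2 adjusted p was between 0.134 and 0.243. RSL24D1, a factor bound to large subunit precursors, was at 191, 234 and 212 CPM in DOX and at 237, 325 and 272 CPM in DMSO; DOX 24 and DMSO 11 were nearly level, and the groups did not overlap (log2 fold change -0.39 ± 0.13 SE, edgeR adjusted p = 0.128). FTSJ3, an RNA methyltransferase and the large subunit member with the next highest level per kilobase after RSL24D1, was at 204, 217 and 199 CPM in DOX and at 216, 154 and 165 CPM in DMSO. Its groups overlapped through DMSO 11 (log2 fold change 0.21 ± 0.13 SE, edgeR adjusted p = 0.323), and 16.8% of its exon length lies opposite PSMC5, so it is uncertain. Without DMSO 11 RSL24D1 was at -0.49 (edgeR adjusted p = 1.74e-04) and FTSJ3 at 0.37 (edgeR adjusted p = 1.25e-04). WDR12, RRP15, NOC3L, BRIX1, SDAD1 and NLE1, all factors of large subunit assembly, also had every DOX library below every DMSO library, at log2 fold changes of -0.25 to -0.10 and edgeR adjusted p between 0.110 and 0.402. The other 10 large subunit members overlapped between groups, with RRP1B at the upper end (0.26 ± 0.12 SE, edgeR adjusted p = 0.208). BOP1, a partner of WDR12, was at 16.0 to 17.6 CPM in DOX and 14.6 to 21.4 CPM in DMSO.

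The 5 genes of both subunits or of general nucleolar function had a median log2 fold change of -0.15 (-0.13 without DMSO 11), and none passed the test. NCL encodes nucleolin, an abundant nucleolar RNA-binding protein, and was at 1028, 1117 and 1032 CPM in DOX and at 1276, 874 and 1028 CPM in DMSO. The DMSO libraries lay on both sides of the DOX libraries, and the means were all but equal (1059 ± 50.05 CPM in DOX and 1059.6 ± 203 CPM in DMSO, SD, n = 3 each; log2 fold change -0.00062 ± 0.14 SE, edgeR adjusted p = 0.998). DDX21, a nucleolar RNA helicase, was at 282, 278 and 270.1 CPM in DOX and at 303, 316 and 358 CPM in DMSO, with no overlap (log2 fold change -0.23 ± 0.094 SE, edgeR adjusted p = 0.165). PINX1, a nucleolar protein that binds telomerase, had the lowest level per kilobase of all members, and was at 7.55, 7.25 and 6.71 CPM in DOX and at 9.003, 8.06 and 9.50 CPM in DMSO. It had 193 to 218 counts per library in DOX and 238 to 281 in DMSO, and its groups did not overlap (log2 fold change -0.30 ± 0.13 SE, edgeR adjusted p = 0.174). PDCD11, which acts in processing for both subunits, had no overlap either (-0.15 ± 0.080 SE), while DHX33, a helicase linked to Pol I transcription, did overlap (0.030 ± 0.10 SE). Without DMSO 11 NCL was at 0.15 (edgeR adjusted p = 0.124), DDX21 at -0.29 (edgeR adjusted p = 0.00191) and PINX1 at -0.29 (edgeR adjusted p = 0.0477).

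Part of the tilt across the 60 genes moved with DMSO 11, and the part of that library in the results was not tested. That library was above both other DMSO libraries for 39 members and below both for 17, which is 65.0% and 28.3%, beside 40.8% and 43.8% of all genes. The median difference in log2 CPM, mean DOX minus DMSO 11, was -0.19 over the members, and mean DOX minus the mean of DMSO 23 and DMSO 35 was -0.044. The mean of DOX was below both DMSO 11 and the mean of the other DMSO libraries for 31 members and above both for 2, IMP3 and RRP1B, which is 51.7% and 3.33% of the members beside 29.7% and 28.5% of all genes. Of genes averaging at least 10 CPM it was 32.8% and 23.1%. NHP2 and IMP3 were the members with DMSO 11 farthest above the other DMSO libraries (0.87 and 0.68 in log2 CPM), and NMD3 was the one farthest below (-0.63).

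**Figure D4:**
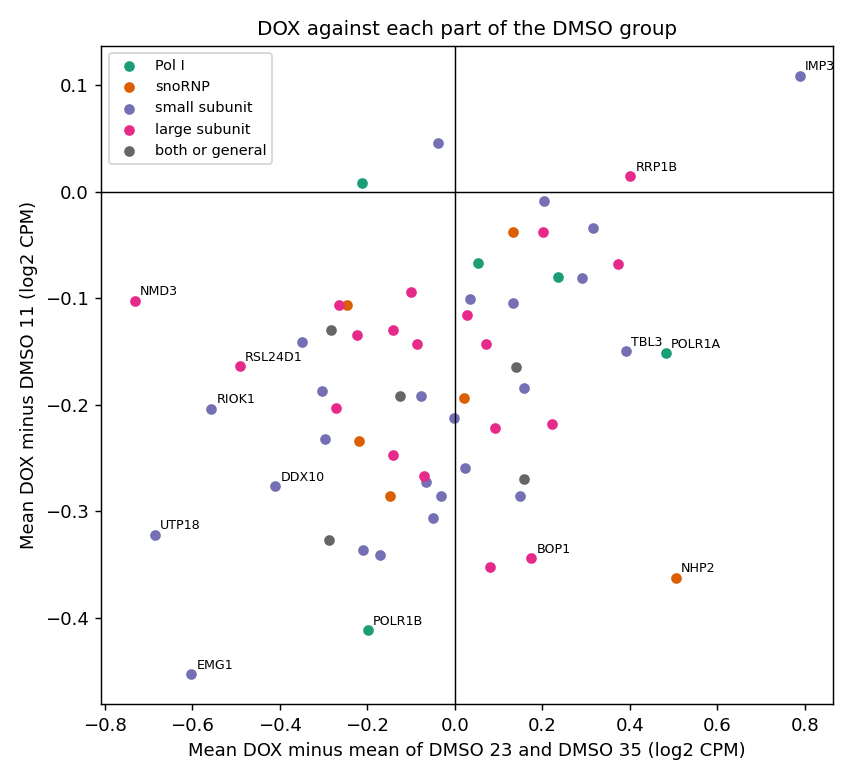
Mean DOX minus the mean of DMSO 23 and DMSO 35 (horizontal axis) and mean DOX minus DMSO 11 (vertical axis), both in log2 CPM, with 1 point per member coloured by role. Most points lie below the horizontal line at 0, the points spread to both sides of the vertical line, 31 lie in the lower left part, and IMP3 and RRP1B lie in the upper right.

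With DMSO 11 left out, the spread within DMSO shrank and edgeR called 31 of the 60 members, in both directions. Of these, 19 were lower and 12 higher in DOX, which is 31.7% and 20% of the members. The shares were 25.7% and 23.7% of the 16412 genes then tested and 31.0% and 28.1% of genes averaging at least 10 CPM. The members' share of lower calls was thus near that of genes averaging at least 10 CPM. The members' median log2 fold change was -0.045 without DMSO 11, beside -0.0081 for all genes. Small subunit factors contributed 9 lower calls (UTP18 at -0.69 and RIOK1 at -0.56 among them) and 5 higher (IMP3 at 0.79 and TBL3 at 0.39 among them). Large subunit factors contributed 5 lower calls, with NMD3 and RSL24D1 at -0.73 and -0.49, and 4 higher, with RRP1B and FTSJ3 at 0.40 and 0.37. Against DMSO 23 and DMSO 35 alone, all DOX libraries were below for 25 members (41.7%) and above for 18 (30%). The shares were 33.7% and 32.8% of all genes and 37.6% and 35.2% of genes averaging at least 10 CPM. With all 6 libraries 24 members were below and 1 above, so leaving DMSO 11 out added mainly members above DMSO. UTP18, EMG1, NMD3 and IMP3, the members beyond 0.5, each moved farther from 0.

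The 88 other ribosome assembly genes on the list were chosen by role and hold no member. Their median log2 fold change was -0.10; edgeR called 0. At an unadjusted edgeR p under 0.05, 24 were lower (27.3%) and 1 higher (1.14%), beside 14.8% and 11.2% of all genes. DESeq2 called 13 lower (14.8%) and 0 higher, beside 6.44% and 3.37% of all genes. Each DOX library was lower than each DMSO library for 32 (36.4%) and above for 0, beside 15.6% and 14.6% of all genes. Over genes averaging at least 10 CPM the unadjusted edgeR shares were 17.8% lower and 9.89% higher. The DESeq2 shares there were 7.42% lower and 2.90% higher, and those without overlap 19.1% lower and 12.6% higher. SHQ1, an assembly chaperone of the DKC1 particle, was at 207, 213 and 209 CPM in DOX and at 274, 316 and 319 CPM in DMSO (log2 fold change -0.53 ± 0.092 SE, edgeR adjusted p = 0.0770, DESeq2 adjusted p = 5.94e-05), and DESeq2 called it with any one of the 6 libraries left out. RUVBL1, an ATPase of the same assembly route, was at 126, 125 and 123 CPM in DOX and at 164, 155 and 148 CPM in DMSO (log2 fold change -0.32 ± 0.078 SE, DESeq2 adjusted p = 0.0156). DMSO 11 was its highest library, and DESeq2 called it without DMSO 11 or DMSO 35 but in no other fit with a library left out. The remaining DESeq2 calls, each kept in 1 or 2 of the 6 fits with a library left out and among them the one without DMSO 11, were NUFIP1 of snoRNP assembly, POLR1D and TAF1D of the Pol I machinery, WDR43, RRP9 and RCL1 of the small subunit and RSL1D1, EIF6, NVL, SBDS and WDR74 of the large subunit, at log2 fold changes in edgeR of -0.59 to -0.28. UBTF, which shapes the Pol I promoter, was at 284, 289 and 291 CPM in DOX and at 313, 227 and 240.0 CPM in DMSO (log2 fold change 0.15 ± 0.13 SE, edgeR adjusted p = 0.468). NOP56, the partner of NOP58, had 0.14 ± 0.11 SE (edgeR adjusted p = 0.435) and NHP2L1, the shared snoRNP protein also called SNU13, had -0.022 ± 0.080 SE (edgeR adjusted p = 0.880). UBTF was at 0.30 without DMSO 11 (edgeR adjusted p = 6.85e-04), NOP56 at 0.25 (edgeR adjusted p = 0.00466) and NHP2L1 at 0.018 (edgeR adjusted p = 0.830). In that fit SHQ1 was at -0.60 (edgeR adjusted p = 2.00e-07) and RUVBL1 at -0.28 (edgeR adjusted p = 8.34e-04). Without DMSO 11 edgeR called 28 of the 88 lower (31.8%) and 19 higher (21.6%), and their median was -0.054. The shares were 25.7% and 23.7% of all genes and 31.0% and 28.1% of genes averaging at least 10 CPM.

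Compared per kilobase of exon, the members with the highest mean levels over the 6 libraries were NCL (153 CPM per kb), NOP10 (106), FBL (89.3), RSL24D1 (81.5), DKC1 (64.8) and DDX21 (59.996). The lowest were PINX1 (2.86 CPM per kb) and MDN1, a large ATPase of large subunit assembly (3.42). Across the 6 libraries the median Pearson correlation over the members' 1770 pairs was 0.391, with 31.9% of pairs below 0 and no value computed for other genes. These pairs share libraries, so the values describe these 6 libraries. In all, exons of 15 members overlapped another gene by at least 10% of their length on the opposite strand, and those of 3 (LTV1, RRS1 and PINX1) did so on the same strand. Beside the members already marked as uncertain, the 15 include HEATR1, TSR1, NOB1, MAK16, EBNA1BP2, WDR3, GTPBP4 and NLE1.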

How the data were processed

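The authors deposited raw counts of reads per gene and, in a second table, the columns of their comparison of DOX with DMSO. Per the file headers these are a mean normalised signal, log2 fold changes and their errors, a score (the test statistic) and p-values. The submitters' processing notes name STAR 2.5.2a, featureCounts, DESeq2 1.12.4 and hg19, without saying what each did. The annotation release and strand setting are not given in the sources used here. The 92 spike-in rows held 0 counts and were left out; the 37 mitochondrially encoded rows also held 0 counts. Count columns were assigned to groups by name.

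Genes were filtered with filterByExpr by group, scaled by TMM and tested with edgeR 4.0.16 (R 4.3.3; robust quasi-likelihood F test, group as the only term, Benjamini-Hochberg adjustment over 15949 genes, threshold 0.05). The SE is the size of the log2 fold change divided by the square root of F. CPM were computed from library totals multiplied by TMM factors, and a prior count of 2 was added for log2 CPM. DESeq2 1.42.0, limma 3.58.1 (voom), other scalings and filters, and each library left out were alternatives; the DESeq2 fits with a library left out were added after the data were seen. The test scripts were tested on simulated data. Every pair of libraries differed by more than sampling noise. Exon lengths and overlaps came from GENCODE 29, matched by gene ID for 59 members; DKC1, EMG1 and BOP1 had 2 IDs each, and the one not used held 0 counts. The ID used for BOP1 was not in GENCODE 29. Members, lists and the rule for named genes (the Pol I and snoRNP genes, genes called by edgeR or DESeq2, and the 2 most changed and 2 highest per kilobase in each role) were chosen with earlier results of these data known. An exact permutation test of 3 against 3 libraries cannot go below 0.1, so none is quoted.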

Additional observations from a re-analysis of the deposited data

How the results depend on the processing

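The count of all genes called by edgeR was 5; it was 1383 with DESeq2, 1761 with no filter on low counts, and 0 to 8109 with each library left out, the highest without DMSO 11 and 0 without any other. The members called were 0 in the main test, under voom, other scalings, a filter of 1 CPM, a non-robust fit and a threshold of 0.01, but 6 with DESeq2, 6 with no filter (5 of them also called by DESeq2), and 0 to 31 with each library left out. The DESeq2 count of members was 0 to 27 with each library left out: 27 without DMSO 11, 2 without DMSO 23 or without DOX 24, 1 without DMSO 35 and 0 without DOX 12 or DOX 36. The share of all genes in these DESeq2 fits was not counted, so the counts do not set the members apart. In edgeR the fit without DMSO 11 called 8109 of 16412 genes. The other ribosome assembly genes called were 0 in the main test, 13 with DESeq2, 11 with no filter and 0 to 47 with each library left out. Members whose groups did not overlap numbered 25, 21 to 23 under other scalings and 25 to 43 with a library left out. With CPM unchanged, leaving a library out can only keep or add genes without overlap. Over all genes, 15.6% were below and 14.6% above with all 6 libraries, and 33.7% and 32.8% without DMSO 11. The cause of the shifts in genes called, and of those under other scalings, was not tested. The members' median stayed negative under every alternative, from -0.15 to -0.045. Of single members near 0, NCL turned positive under voom (0.0150), upper quartile scaling (0.0329), total count scaling (0.0066) and the 1 CPM filter (0.0085) and ran from -0.1246 to 0.1539 with a library left out; POLR1E was -0.0016 with no filter and -0.0526 to 0.0507 with a library left out. With a library left out DKC1 ran from -0.1136 to 0.0221, NHP2 from -0.0112 to 0.5053 and NOP10 from -0.0001 to 0.1293. No paired analysis was possible because the count columns carry none of the labels' replicate numbers. Pairs could only be assumed from the consecutive column numbers, and no such fit was run. Depth was near equal between libraries, and 3 libraries per group limit the precision.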
